A study of Mus musculus with 15 samples.

Results

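The Notch pathway genes described here are the 7 genes Notch1, Notch2, Jag1, Dll1, Hes1, Hey1 and Rbpj, taken as every array probe whose RefSeq identifier maps to one of these symbols. All 7 had at least 1 probe among the 14192 mouse genes tested, and 10 probes measured them. They were followed in macrophages grown from mouse bone marrow in MCSF (macrophage colony-stimulating factor) for one week, in 4 groups on a C57BL/6 background. Junb knockout cells (KO) carry the genotype Junb-fl/fl Lyz2-Cre+/+, in which Cre is made from both copies of Lyz2, a myeloid gene for lysozyme, so that Junb is deleted in myeloid cells. They were measured with LPS (100 ng/ml for 4 h, 3 arrays, replicates 2 to 4) and untreated (4 arrays). Wild type cells (WT) are labelled C57BL/6, with no floxed Junb and no Cre named, and were measured with LPS (4 arrays) and untreated (4 arrays). LPS, lipopolysaccharide, is a cell wall component of Gram-negative bacteria that macrophages sense through Toll-like receptor signalling, and the protein made from Junb is part of AP-1, a transcription factor built of paired subunits. Knockout and wild type therefore differ by Cre and by the Lyz2 alleles as well as by Junb.

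As background, Notch receptors are membrane proteins that are cut when a ligand of the Delta-like or Jagged family on a neighbouring cell binds them. The released intracellular part enters the nucleus, joins the DNA-binding protein RBPJ and turns on genes such as Hes1 and Hey1, which encode transcriptional repressors. Macrophages express both receptors and ligands, and Toll-like receptor signals are known to raise several of these transcripts.

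Each array gives 1 intensity per spot. Levels are given on the log2 scale relative to the 75th percentile of the array, so that 0 is the 75th percentile, and -4.52 is a common floor below which signals were not well above background on the least sensitive array. A level compares arrays for 1 probe and not 1 probe with another. The replicates are independent wells, so p-values measure the spread between wells, not between mice. Arrays at the floor hide that spread, so p-values of probes with such arrays can be too small. The 75th percentile ranged from 482 to 1490 over the 15 arrays, and 51.0% to 63.2% of spots were well above background. Junb itself checked the labels: its signal was 0.645 to 3.71 in KO LPS and -0.395 to 4.15 in KO untreated arrays, on none of which it was well above background, against 4323 to 9574 in WT LPS and 1291 to 2068 in WT untreated arrays. All 7 KO arrays lay on slide 1 and all 8 WT arrays on slide 2, so a comparison of KO with WT is also one of slides, while each LPS comparison lies within a slide. The 7 measured macrophage markers, Adgre1, Csf1r, Itgam and Cd14 among them, were well above background on all 15 arrays. Clec9a (dendritic cells), Mpo (neutrophil precursors), Pax5 (B cells), Cd3d, Cd3g and Ncr1 (T and NK cells), Alas2 (red cell precursors) and Tek and Emcn (endothelium) were above background on none. Other genes of these lists were well above background on all 15 arrays, namely Siglech, Flt3 and Xcr1 (dendritic cells), S100a8, Elane and Camp (neutrophils), Cd79a, Cd79b and Vpreb3 (B cells), Cd3e (T cells), Pecam1, Cdh5 and Kdr (endothelium) and Col1a1, Col3a1 and Pdgfrb (stroma). On 1 KO untreated array, replicate 3, 2115 spots had been marked as outliers, against 132 to 514 on the others. That array, WT untreated replicate 1 and WT LPS replicate 4 deviated most from their group means.

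The promoters of the genes that rose with LPS are shown because the knocked-out gene encodes an AP-1 subunit and because LPS also acts through NF-kB, and RBPJ is the factor of the pathway itself. RefSeq promoter windows on GRCm38.p6 were at hand for 5 of the 7 members with 7 start sites. The windows shown are the 250 bases before a start, 5′ to 3′ on the strand of the gene. Capitals mark matches, on either strand, to the AP-1 motif TGANTCA, the RBPJ motif TGGGAA or the NF-kB consensus. The last may overlap an RBPJ match, which did not happen here.
Dll1, upstream start, chr17:15376933-15377182, minus strand: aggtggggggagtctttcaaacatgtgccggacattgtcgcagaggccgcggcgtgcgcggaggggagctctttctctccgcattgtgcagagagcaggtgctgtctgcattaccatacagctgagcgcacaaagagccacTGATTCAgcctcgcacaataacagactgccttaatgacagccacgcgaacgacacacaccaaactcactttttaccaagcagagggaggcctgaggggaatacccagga
Dll1, downstream start, chr17:15375824-15376073, minus strand: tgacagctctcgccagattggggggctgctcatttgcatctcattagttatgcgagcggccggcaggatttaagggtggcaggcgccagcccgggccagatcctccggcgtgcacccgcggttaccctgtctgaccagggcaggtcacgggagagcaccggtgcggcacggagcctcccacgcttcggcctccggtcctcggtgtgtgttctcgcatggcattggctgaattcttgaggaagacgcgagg
Jag1, chr2:137116521-137116770, minus strand: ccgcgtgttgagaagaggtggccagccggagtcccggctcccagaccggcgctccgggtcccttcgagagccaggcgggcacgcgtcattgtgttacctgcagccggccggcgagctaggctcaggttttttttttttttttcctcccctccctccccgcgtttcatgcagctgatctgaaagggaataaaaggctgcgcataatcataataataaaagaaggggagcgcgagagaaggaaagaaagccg
Notch2, chr3:98013288-98013537, plus strand: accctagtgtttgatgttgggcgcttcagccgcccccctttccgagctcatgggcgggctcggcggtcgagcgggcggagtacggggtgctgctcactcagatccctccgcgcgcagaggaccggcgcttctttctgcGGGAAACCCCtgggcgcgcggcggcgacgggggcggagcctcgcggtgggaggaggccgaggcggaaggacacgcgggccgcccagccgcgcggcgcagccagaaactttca
Rbpj, upstream start, chr5:53590096-53590345, plus strand: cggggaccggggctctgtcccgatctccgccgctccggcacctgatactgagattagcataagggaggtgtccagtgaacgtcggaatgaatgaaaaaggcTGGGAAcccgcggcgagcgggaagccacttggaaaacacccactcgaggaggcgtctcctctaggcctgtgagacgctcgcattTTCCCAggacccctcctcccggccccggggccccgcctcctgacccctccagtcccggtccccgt

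The upstream Dll1 window held 1 AP-1 match, 109 to 103 bases before the start, and was the one window of the members' 7 with that motif, which 6.75% of 32851 windows of the same length held. Notch2 had 1 NF-kB match, 112 to 103 bases before the start, against 3.9% of all windows. The upstream Rbpj window had 2 RBPJ matches, at 149 to 144 and at 65 to 60 bases before the start, and the downstream one shares the nearer of these. Of all windows, 21.6% held an RBPJ match. These letters were not in the Jag1 and Notch1 windows. A match describes the sequence and is not evidence of binding.

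Among the ligands, both measured members rose with LPS in both genotypes, and Dll1 reached a lower level in KO cells. Dll1, a Delta-like ligand, had log2 levels of -1.13, -1.13 and -1.10 on the KO LPS arrays, while all 4 KO untreated arrays were at the floor of -4.52. In WT cells it had 0.26, -0.15, 0.15 and 0.20 with LPS, and -4.48, -4.52, -4.52 and -4.52 untreated. The LPS groups did not overlap with the untreated groups or with each other, and the untreated groups could not be told from background, since 0 of 4 KO untreated and 1 of 4 WT untreated arrays were well above it. Dll1 rose by a fitted 3.40 ± 0.10 with LPS in KO cells (log2 fold change ± SE, adjusted p = 3.5e-12) and by 4.62 ± 0.09 in WT cells (adjusted p = 6.2e-14). Because untreated values sit at the floor, these sizes depend on it. Such values also have almost no spread (SD 0 in KO untreated and 0.02 in WT untreated arrays). They enter the shared estimate of the spread, so the SEs, intervals and p-values given for Dll1 can be too small. In KO cells, where no untreated array was well above background, the LPS level was at least 19.1-fold higher in the main scaling. Other processing gave smaller and larger rises in KO cells, with fitted log2 values of 2.46 to 4.33 over the alternatives. The KO response was smaller than the WT response by 1.22 ± 0.13 on the log2 scale (95% interval -1.51 to -0.94, adjusted p = 6.32e-05). This difference rests on the LPS levels alone, which were 1.23 ± 0.10 lower on the log2 scale in KO LPS than in WT LPS cells (difference -1.23, adjusted p = 8.7e-07), and an effect of the slide cannot be told apart from one of genotype there. In bulk RNA, fewer cells that express a gene and less RNA per cell cannot be told apart.

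**Figure D1:**
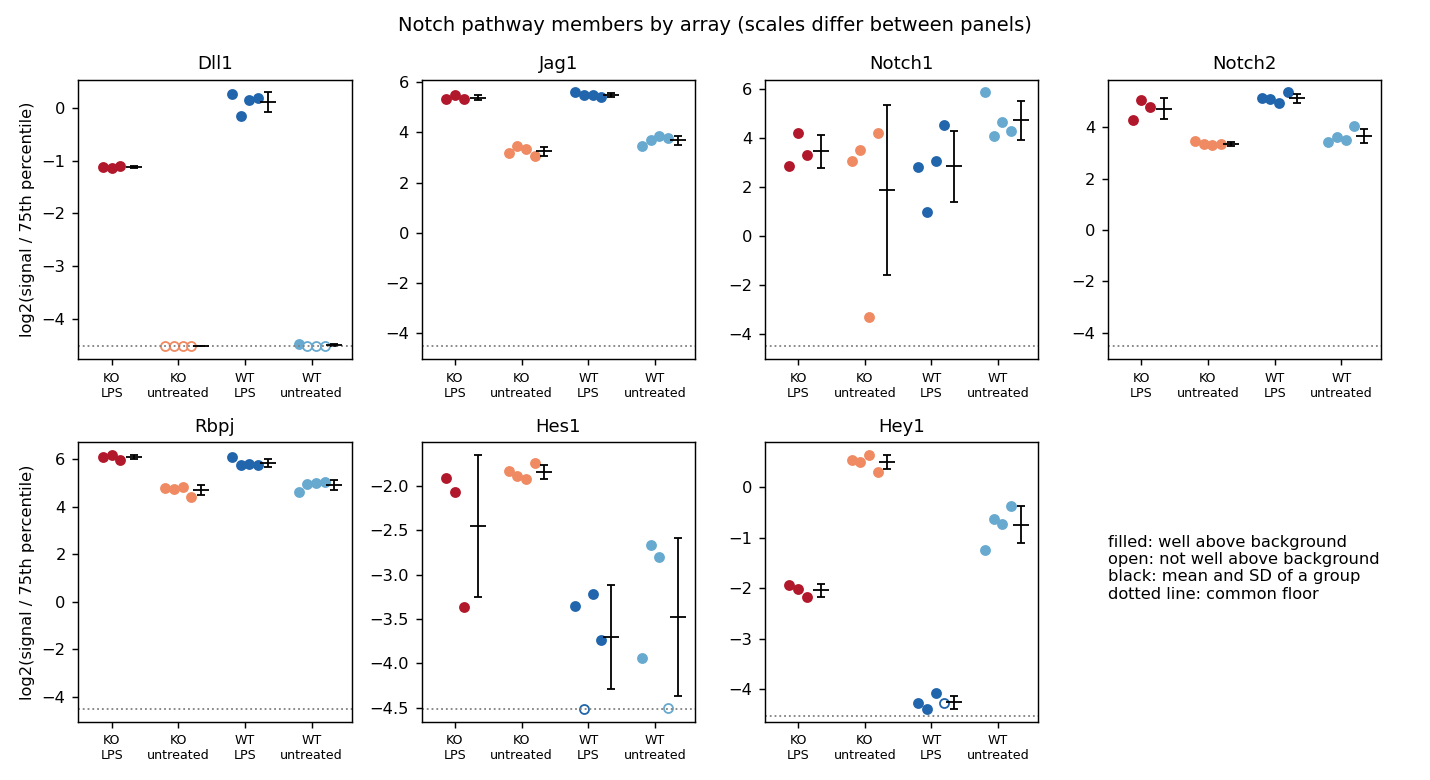
Log2 level of the 7 Notch pathway members relative to the array's 75th percentile (vertical axis) on each array of the 4 groups, with mean and SD in black and the common floor dotted. Dll1 sits at the floor in untreated cells, and the KO LPS arrays, at -1.13 to -1.10, lie below the WT LPS arrays, at -0.15 to 0.26; Hey1 runs the other way.

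The Dll1 probe was printed 10 times on the array, which shows its reading error within an array. With LPS, all 10 spots were well above background on every array. Their signals spanned 191 to 444 over the KO LPS arrays and 485 to 1483 over the WT LPS arrays, and the coefficient of variation within an array was 11.3% to 16.6% in KO and 11.9% to 12.9% in WT. Relative to the 75th percentile, the KO LPS spots lay between 0.332 and 0.600, and the WT LPS spots between 0.755 and 1.47, with no overlap between single spots of the genotypes. Of the untreated spots, at most 4 of 10 on a KO array and 5 of 10 on a WT array were well above background.

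**Figure D2:**
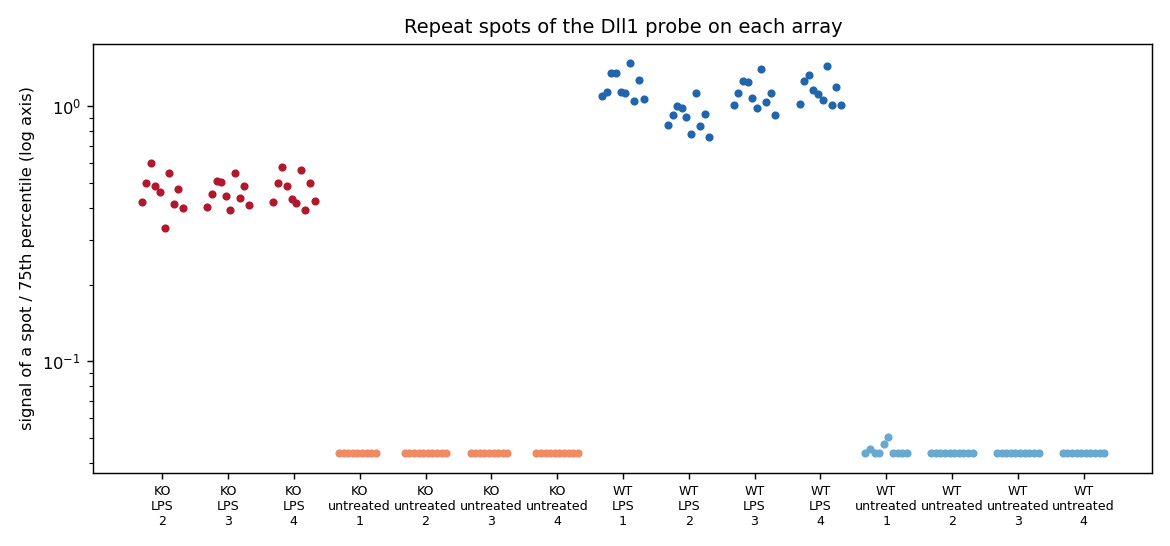
Signal of each repeat spot of the Dll1 probe over the array's 75th percentile (vertical log axis) for each array, by group and replicate. The KO LPS spots lie between 0.332 and 0.600, the WT LPS spots between 0.755 and 1.47, and untreated spots at or near the floor of 0.0436.

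Jag1, a ligand of the Jagged family, had log2 levels of 5.31, 5.50 and 5.35 on the KO LPS arrays, against 3.17, 3.46, 3.35 and 3.06 on the KO untreated arrays. It had 5.59, 5.48, 5.49 and 5.43 in WT LPS and 3.44, 3.68, 3.86 and 3.78 in WT untreated arrays. Every LPS array was above every untreated array, and the KO and WT groups overlapped with LPS and, by 1 array each, without it. Jag1 was 4.37-fold higher with LPS in KO cells (log2 2.13 ± 0.12, adjusted p = 3.56e-09) and 3.504-fold higher in WT cells (1.81 ± 0.11, adjusted p = 6.94e-09). The responses did not pass the test for a difference (0.32 ± 0.17, 95% interval -0.04 to 0.68, adjusted p = 0.263). Untreated, Jag1 was lower in KO cells by a log2 difference of -0.43 ± 0.11 (adjusted p = 0.0191), a call that is lost without KO untreated replicate 1 (-0.40, adjusted p = 0.0617), KO untreated replicate 4 (-0.36, 0.0555) or WT untreated replicate 3 (-0.37, 0.0602), and with the percentile taken over unmarked spots (-0.37, 0.0608). With LPS the difference was -0.11 ± 0.12 (adjusted p = 0.547).

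The endothelial, stromal and T and NK cell lists summed higher with LPS too. The sums of the dendritic cell, B cell and erythroid lists overlapped between LPS and untreated arrays in both genotypes. The summed relative level of the endothelial list, of which 3 of 5 genes were above background in a group, was 1.94 to 2.39 in KO LPS and 0.355 to 0.450 in KO untreated arrays, and 1.60 to 2.21 in WT LPS and 0.482 to 0.631 in WT untreated arrays. Kdr made up most of this sum in the LPS groups, with mean log2 levels of 0.80 in KO LPS, -3.35 in KO untreated, 0.56 in WT LPS and -2.04 in WT untreated cells. Pecam1 had -2.47 in KO LPS, -3.15 in KO untreated, -2.33 in WT LPS and -3.15 in WT untreated cells, and Cdh5 had -2.67, -3.33, -2.73 and -3.40 in the same groups. Tek and Emcn were above background on no array. The stromal list, 5 of 6 genes, summed to 17.7 to 19.9 in KO LPS and 2.92 to 4.42 in KO untreated arrays, and to 6.66 to 10.3 in WT LPS and 2.49 to 4.73 in WT untreated arrays. Pdgfrb had mean log2 levels of 3.73 in KO LPS, -2.41 in KO untreated, 1.98 in WT LPS and -1.93 in WT untreated cells, and it made up most of the sum in KO LPS cells. Col1a1 had 1.34 in KO LPS, 0.84 in KO untreated, 1.19 in WT LPS and 0.38 in WT untreated cells, and Dcn had -2.85, -3.96, -0.62 and -2.61 in the same groups. Col3a1 had 0.77, -0.04, -0.26 and -0.02 there, so it was not higher with LPS in WT cells. The T and NK cell list, 3 of 6 genes, summed to 2.15 to 2.84 in KO LPS and 0.496 to 0.586 in KO untreated arrays, and to 1.77 to 2.63 in WT LPS and 0.399 to 0.517 in WT untreated arrays, with Lck at 1.04, -2.41, 0.81 and -3.00 on the log2 scale in the same groups. Klrb1c, of the same list, had -2.607 in KO LPS, -3.554 in KO untreated, -3.43 in WT LPS and -3.475 in WT untreated cells. The dendritic cell list summed to 166.9 to 232.3 in KO LPS and 100.9 to 178.6 in KO untreated arrays. In WT arrays it summed to 135.1 to 320.5 with LPS and 150.6 to 214 untreated. The B cell list in WT arrays summed to 0.7368 to 1.487 with LPS and 1.021 to 5.678 untreated. The part of other cells in the ligand results was not tested.

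Of the other ligand genes, Dll4 and Dlk1 did not have a probe above background on 3 arrays of any group. Dll3 and Jag2 were dim. Dll3 was well above background on 0 of 3 KO LPS and 0 of 4 KO untreated arrays, and on 4 of 4 WT LPS and 2 of 4 WT untreated arrays. Its fitted log2 difference with LPS was -1.15 (KO minus WT, adjusted p = 0.00335). In the main scaling, the KO LPS readings, none well above background, lay 2.22-fold below the WT LPS level, which is not a lower limit. Normexp gave a log2 difference of -0.34 (adjusted p = 0.32), and a brighter Dll3 probe that failed the filter on dim probes gave 0.10 (adjusted p = 1). Jag2 was well above background on 1 of 3 KO LPS and 4 of 4 KO untreated arrays and on no WT array. Untreated, its fitted log2 difference was 0.62 (KO minus WT, adjusted p = 0.00266), with all WT arrays at the floor. The alternatives gave 0.56 to 1.46. Set against the higher of the reading and the detection limit of each WT array, Jag2 was at least 2.72-fold higher in untreated KO cells in the main scaling.

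Among the receptors, Notch2 rose with LPS in both genotypes, and Notch1, whose arrays scattered widely, did not pass the test in either. Notch2 had log2 levels of 4.28, 5.07 and 4.79 in KO LPS, against 3.48, 3.33, 3.30 and 3.33 in KO untreated arrays. It had 5.12, 5.11, 4.92 and 5.35 in WT LPS, against 3.44, 3.61, 3.49 and 4.06 in WT untreated arrays. Each LPS group lay wholly above its untreated group, while KO and WT overlapped at both conditions. The rise was 2.56-fold in KO (log2 1.36 ± 0.18, adjusted p = 2.11e-05) and 2.79-fold in WT cells (log2 1.48 ± 0.17, adjusted p = 3.77e-06), and the difference of the responses, -0.12 ± 0.25, had a 95% interval of -0.66 to 0.42 (adjusted p = 0.793). KO minus WT was -0.29 ± 0.17 untreated (adjusted p = 0.278) and -0.41 ± 0.18 with LPS (adjusted p = 0.111); without KO LPS replicate 3 the difference with LPS became -0.59 and passed (adjusted p = 0.0462).

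A second Notch2 probe was dimmer and moved the same way. It had log2 levels of -3.01, -3.03 and -2.55 in KO LPS, against -4.52, -4.52, -4.06 and -4.50 in KO untreated arrays, and -2.30, -1.97, -2.46 and -2.15 in WT LPS, against -4.31, -4.25, -4.52 and -4.26 in WT untreated arrays. It rose by 1.53 ± 0.16 in KO (adjusted p = 1.7e-06) and by a fitted 2.11 ± 0.15 in WT cells (adjusted p = 2.29e-08). No WT untreated array was well above background. The WT LPS level was 4.51-fold above the WT untreated readings in the main scaling, which is not a lower limit. By this probe, Notch2 with LPS was lower in KO cells, by a log2 difference of -0.65 ± 0.16 (adjusted p = 0.00822 over 18338 probes), with no overlap of the KO and WT arrays. The brighter probe had the same direction there and missed the threshold, but it passed with array weights (-0.47, adjusted p = 0.0199), as did the mean of the probes (-0.53, adjusted p = 0.012).

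Notch1 had log2 levels of 2.85, 4.19 and 3.33 in KO LPS, against 3.06, 3.53, -3.32 and 4.21 in KO untreated arrays, by its brighter probe. It had 2.81, 0.99, 3.06 and 4.53 in WT LPS, against 5.87, 4.08, 4.68 and 4.30 in WT untreated arrays. The groups overlapped, and KO untreated replicate 3 read a signal of 116, against 5095 to 17207 on the other KO untreated arrays. The change with LPS was 1.59 ± 1.41 in KO (adjusted p = 0.347) and -1.88 ± 1.31 in WT cells (adjusted p = 0.235). Without KO untreated replicate 3, the KO value was -0.14, of the opposite sign, and the WT value of -1.88 passed the test (adjusted p = 0.0184). The other Notch1 probe had 1.501, 5.07 and 1.502 in KO LPS, against 1.61, 0.70, 2.31 and 2.75 in KO untreated arrays, and 0.77, 0.55, 1.60 and 1.74 in WT LPS, against 2.78, 3.02, 4.94 and 0.58 in WT untreated arrays. It singled out other arrays, KO LPS replicate 3 and WT untreated replicates 3 and 4, and gave 0.85 ± 0.96 in KO (adjusted p = 0.464) and -1.66 ± 0.89 in WT cells (adjusted p = 0.124). In WT cells both probes were lower with LPS, every alternative run kept that sign (-2.44 to -1.26), and the value passed without KO untreated replicate 3, as above, and without the 3 arrays that deviated most (-2.06, adjusted p = 0.00536), but not in the fit of all arrays. In KO cells the sign of the brighter probe's value changed when 1 array was left out. Of the other receptors, Notch3 was well above background on no array, and Notch4 fell by 2.82 with LPS on the log2 scale in KO (adjusted p = 1.1e-09) and fell by 2.88 in WT cells (adjusted p = 3.02e-10). Only 1 of 4 WT LPS arrays was well above background for Notch4, with a mean log2 level of -3.93 in that group, and the sizes moved with the background correction: normexp gave -1.91 in KO and -1.71 in WT cells.

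**Figure D3:**
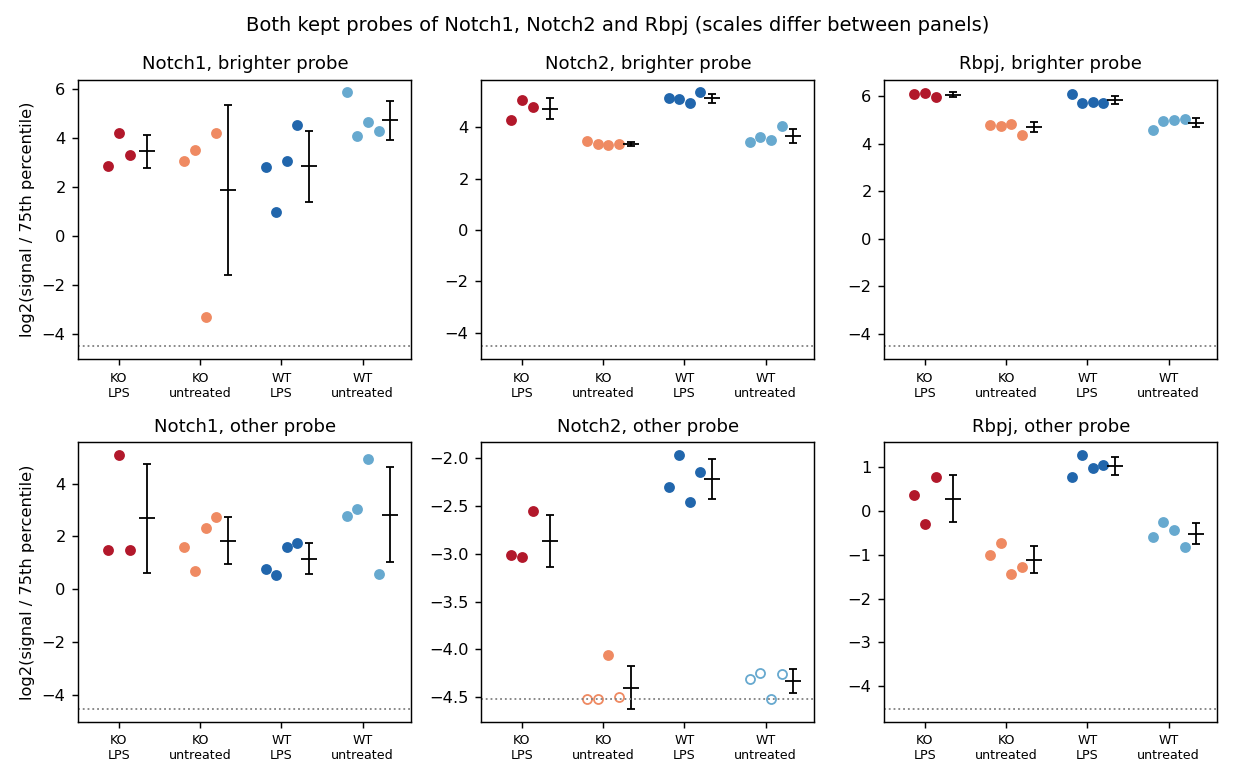
Log2 level relative to the 75th percentile (vertical axis) on each array for the brighter probe (top) and the other probe (bottom) of Notch1, Notch2 and Rbpj, by group, with mean and SD. Both probes of Notch2 and Rbpj were higher in each LPS group than in its untreated group, while the Notch1 probes stand apart on different arrays, such as KO untreated replicate 3 at -3.32 on the brighter one.

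Rbpj, the DNA-binding factor on which all receptors converge, rose with LPS in both genotypes. Its log2 levels were 6.10, 6.16 and 5.98 in KO LPS, against 4.81, 4.75, 4.85 and 4.40 in KO untreated arrays. They were 6.09, 5.74, 5.78 and 5.74 in WT LPS, against 4.60, 4.95, 5.003 and 5.05 in WT untreated arrays. LPS and untreated arrays did not overlap in either genotype, and KO and WT arrays overlapped at both conditions. The rise was 2.60-fold in KO (log2 1.38 ± 0.14, adjusted p = 1.45e-06) and 1.91-fold in WT cells (log2 0.94 ± 0.13, adjusted p = 2.86e-05), and the responses did not pass the test for a difference (0.44 ± 0.20, 95% interval 0.02 to 0.87, adjusted p = 0.18). The WT rise is sensitive to scaling: it was 0.22 after quantile normalization (adjusted p = 0.111) and 0.17 in the authors' deposited value table (adjusted p = 0.282). A second, dimmer Rbpj probe rose by 1.39 ± 0.24 in KO (adjusted p = 0.000163) and by 1.54 ± 0.22 in WT cells (adjusted p = 2.8e-05). With LPS that probe was lower in KO cells (-0.74 ± 0.24, adjusted p = 0.0292). It had 0.36, -0.30 and 0.7709 on the KO LPS arrays and 0.7723, 1.27, 0.97 and 1.05 on the WT LPS arrays. The highest KO and the lowest WT value were thus nearly equal. The brighter probe gave 0.24 ± 0.14 (adjusted p = 0.226), so the direction of the genotype difference depends on the probe.

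Of the target genes, Hey1 fell with LPS in both genotypes and was higher in KO cells at both conditions, and Hes1 was higher in untreated KO cells. Hey1, a repressor of the Hairy family, had log2 levels of -1.93, -2.003 and -2.18 in KO LPS, against 0.54, 0.51, 0.64 and 0.30 in KO untreated arrays. It had -4.27, -4.39, -4.07 and -4.27 in WT LPS, against -1.23, -0.62, -0.72 and -0.37 in WT untreated arrays. The order was KO untreated, WT untreated, KO LPS and WT LPS from high to low, with no overlap between any neighbours. Hey1 fell by 2.53 ± 0.17 on the log2 scale with LPS in KO (adjusted p = 1.5e-08) and fell by 3.51 ± 0.16 in WT cells (adjusted p = 1.85e-10). It was 2.35-fold higher in KO than in WT cells untreated (log2 1.23 ± 0.16, adjusted p = 9.48e-05) and 4.64-fold higher with LPS (log2 2.22 ± 0.17, adjusted p = 5.9e-07). The difference of the responses was 0.98 ± 0.23 (adjusted p = 0.0156), but the WT LPS values lie just above the floor, with 3 of 4 arrays well above background, and this difference did not hold under other processing: it was 0.80 after quantile normalization (adjusted p = 0.0953), 0.27 in the deposited value table (adjusted p = 0.662) and -0.11, of the opposite sign, after normexp background correction (adjusted p = 0.839).

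Hes1, the best-known target of the pathway, had log2 levels of -1.91, -2.07 and -3.37 in KO LPS and -1.83, -1.89, -1.92 and -1.74 in KO untreated arrays. It had -3.35, -4.52, -3.22 and -3.73 in WT LPS and -3.94, -2.67, -2.80 and -4.50 in WT untreated arrays. KO untreated arrays were close together and all above the WT untreated arrays, and 1 array of each WT group was not well above background. Untreated, Hes1 was 3.101-fold higher in KO cells (log2 1.63 ± 0.42, adjusted p = 0.0165), a call that was lost without the 3 arrays that deviated most (1.503, adjusted p = 0.0821). With LPS the difference of 1.26 ± 0.46 missed the threshold (adjusted p = 0.0521). It passed in 8 of 26 alternatives, with adjusted p from 0.016 to 0.0497 among these; without KO LPS replicate 4, which at -3.37 lay among the WT arrays, the value was 1.71 (adjusted p = 0.016). The change with LPS was -0.61 ± 0.46 in KO (adjusted p = 0.267) and -0.23 ± 0.42 in WT cells (adjusted p = 0.675). Hes6, another Hairy family gene, which the gene list placed with the targets, fell by 2.10 in KO (adjusted p = 2.11e-07) and fell by 1.57 in WT cells (adjusted p = 1.62e-06). Whether Hes6 answers to Notch in these cells was not tested. Hes5, Hey2, Heyl and Nrarp were well above background on no array.

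The sum of the neutrophil list differed between the genotypes beside these genes. It was 18.3 to 20.8 in KO LPS and 5.83 to 6.67 in KO untreated arrays, against 48.4 to 64.95 in WT LPS and 6.90 to 11.9 in WT untreated arrays. S100a8 made up most of it, with mean log2 levels of 3.82 in KO LPS, 2.31 in KO untreated, 5.58 in WT LPS and 2.84 in WT untreated cells. Camp had 2.13, -0.65, 2.77 and 0.33 in the same groups. Elane hardly differed (-1.03, -1.06, -1.02 and -1.01), and Ltf with LPS was higher in KO (-2.64) than in WT cells (-3.14). S100a9 was well above background on 0 of 7 KO and 8 of 8 WT arrays, and Mpo, which defines granulocyte precursors, on none. Their part in the genotype differences of Hey1, Hes1 and Dll1 was not tested.

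Counted over the 7 members, 4 rose (Dll1, Jag1, Notch2 and Rbpj), 1 fell (Hey1) and 2 did not pass with LPS in KO cells, and the same genes gave the same calls in WT cells. Of all 14192 genes, 32.5% were called higher and 27.5% lower with LPS in KO cells, and 34.9% higher and 25.5% lower in WT cells, so a call with LPS is common. The median log2 change of the members was 1.38 in KO and 0.94 in WT cells, beside 0.19 and 0.14 over all genes. The members were chosen with earlier results of these data known, so setting these medians side by side is not a test. Quantile normalization moved the median of all genes to -0.07 in KO and -0.10 in WT cells, and the share of calls that were higher to 37.8% in KO and 43.4% in WT cells, against 54.2% and 57.8% with the 75th percentile; Dll1, Jag1 and Notch2 rose and Hey1 fell in both genotypes under either. For the difference of the responses, 1 member was higher (Hey1) and 1 lower (Dll1), where 2.9% of all genes were called higher and 7.15% lower. Untreated, 2 members were higher in KO cells (Hes1 and Hey1) and 1 lower (Jag1), beside 11.9% of all genes higher and 5.83% lower. With LPS, 1 was higher (Hey1) and 1 lower (Dll1), beside 13.6% of all genes higher and 17.1% lower.

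**Figure D4:**
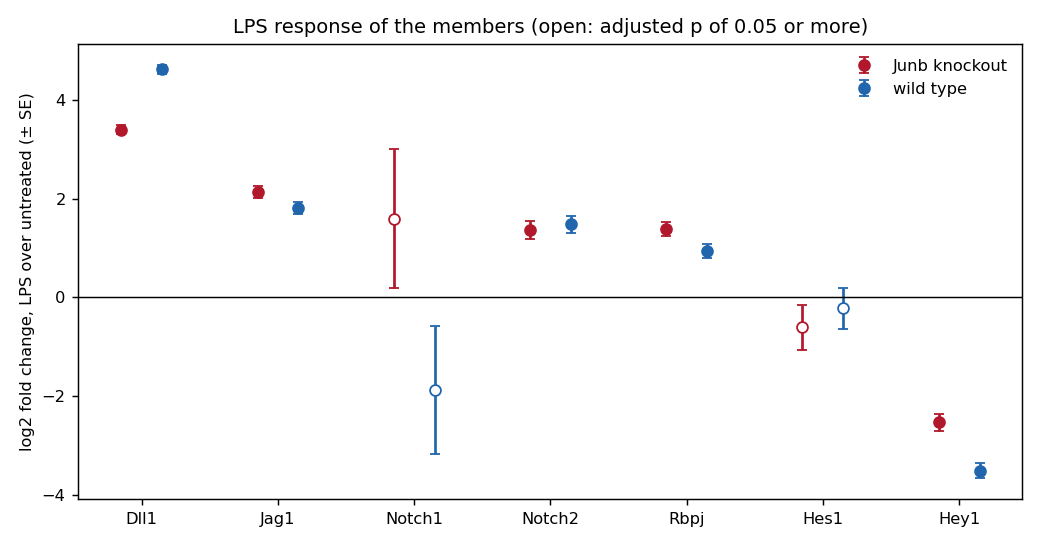
Log2 fold change of LPS over untreated with its SE (vertical axis) for each of the 7 members in Junb knockout and wild type cells, filled where the adjusted p is under 0.05. Dll1 responded less in KO (3.40) than in WT cells (4.62), and the open Notch1 and Hes1 points did not pass the test.

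The other genes of the pathway were taken from a list of 58, of which 47 could be tested; 9 had no probe above background on 3 arrays of a group, and 2 had no matched probe. With LPS, 13 rose, 20 fell and 14 did not pass in KO cells, and 14 rose, 17 fell and 16 did not pass in WT cells. Of all genes, 32.5% were called higher and 27.5% lower in KO cells, and 34.9% higher and 25.5% lower in WT cells. The 47 pathway genes had a median log2 change of -0.20 in KO and -0.02 in WT cells. Of the 5 tested enzymes that put sugars on the receptors, 1 rose and 4 fell in each genotype. Mfng, a Fringe glycosyltransferase, fell by 2.77 in KO (adjusted p = 1.63e-10) and fell by 2.87 in WT cells (adjusted p = 4.07e-11), and it was higher in KO cells untreated (log2 1.08, adjusted p = 1.44e-05) and with LPS (1.17, adjusted p = 8.09e-06). Its other probe had the same direction in all 4 of these comparisons. Lfng, a second Fringe enzyme, fell by 1.97 in KO (adjusted p = 1.96e-05, with 1 KO untreated array missing) and fell by 2.83 in WT cells (adjusted p = 1.32e-07).

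Of 8 genes for receptor cleavage, 2 rose and 4 fell with LPS in KO cells, and 3 rose and 3 fell in WT cells. Psen2, a catalytic subunit of gamma-secretase, which frees the intracellular part, fell by 0.87 in KO (adjusted p = 0.00219) and fell by 1.18 in WT cells (adjusted p = 8.45e-05); in the deposited value table neither passed, at 0.38, of the opposite sign, in KO (adjusted p = 0.847) and -1.55 in WT cells (adjusted p = 0.345). Aph1b, another subunit, fell by 1.37 in KO (adjusted p = 6.25e-05) and fell by 1.62 in WT cells (adjusted p = 5.34e-06), while its other probe did not pass with LPS (0.45 in KO, adjusted p = 0.0782, and -0.15 in WT cells, adjusted p = 0.519). With LPS that other probe was higher in KO than in WT cells (1.04, adjusted p = 0.00204), against -0.24 for the brighter probe (adjusted p = 0.416). Of the 11 genes of ubiquitin transfer and endocytosis, 2 rose and 5 fell in each genotype. Dtx2, a Deltex ubiquitin ligase, rose by 1.96 in KO (adjusted p = 1.72e-08) and by 2.19 in WT cells (adjusted p = 1.99e-09), and Dtx4, of the same family, fell by 1.60 in KO (adjusted p = 2.66e-06) and fell by 1.75 in WT cells (adjusted p = 4.26e-07).

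**Figure D5:**
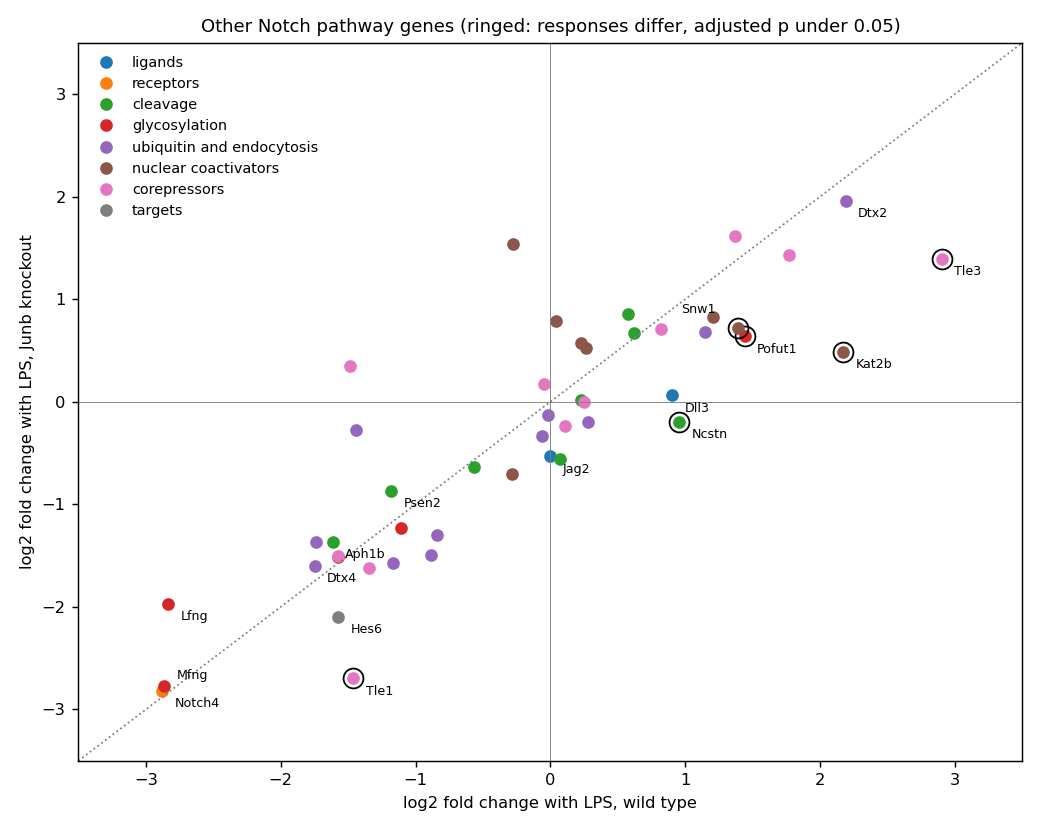
Log2 fold change of LPS over untreated in Junb knockout cells (vertical axis) and in wild type cells (horizontal axis) for the 47 other pathway genes tested, coloured by role, with equal responses on the dotted line. The 6 ringed genes, Kat2b, Snw1, Tle3, Tle1, Ncstn and Pofut1, lie below the line.

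The LPS responses differed between the genotypes in 6 of the 47 genes, all lower in KO, where 7.15% of all genes were called lower. Kat2b, a histone acetyltransferase and coactivator, rose by 0.48 in KO (adjusted p = 0.0231) and by 2.17 in WT cells (adjusted p = 2.61e-08), a difference of -1.69 ± 0.23 (adjusted p = 0.000376). The rise in KO cells was not called without KO untreated replicate 4, KO LPS replicate 2 or KO LPS replicate 4 (0.40, 0.40 and 0.34, adjusted p = 0.0667, 0.0927 and 0.123). Normexp (0.40, adjusted p = 0.0523) and the deposited value table (0.36, adjusted p = 0.0829) did not call it either. Nor was Kat2b called in KO cells from the KO arrays alone (0.48, adjusted p = 0.0769) or without the 3 most deviating arrays (0.45, adjusted p = 0.0547). Its log2 level was 1.60 ± 0.39 in KO LPS and 1.12 ± 0.21 in KO untreated cells, and 3.30 ± 0.12 in WT LPS and 1.13 ± 0.14 in WT untreated cells (SD, n = 3 in KO LPS and 4 in each other group). Tle3, a Groucho family corepressor, rose by 1.39 in KO (adjusted p = 1.44e-06) and by 2.90 in WT cells (adjusted p = 2.69e-10; difference -1.51 ± 0.20, adjusted p = 0.000314). Tle1, of the same family, fell by 2.70 in KO (adjusted p = 1.84e-08) and fell by 1.46 in WT cells (adjusted p = 3.98e-06; difference -1.24 ± 0.25, adjusted p = 0.00649); of its other probes, 1 gave the same call (-1.44, adjusted p = 5.91e-05) and 1 did not (-0.10, adjusted p = 0.835), which also gave changes with LPS of 0.32 in KO (adjusted p = 0.175) and 0.43 in WT cells (adjusted p = 0.0575) in place of the falls. The Tle1 difference missed the threshold with normexp (-0.89, adjusted p = 0.0831) and in the deposited value table (-1.10, adjusted p = 0.0829). Pofut1, which adds the fucose that Fringe enzymes extend, differed by -0.80 ± 0.19 (adjusted p = 0.021, with 1 KO untreated array missing), and by -1.35 with its other probe (adjusted p = 0.0139). Without KO untreated replicate 1 or KO LPS replicate 3 it was -0.75 and -0.69 and missed the threshold (adjusted p = 0.0567 and 0.06), as it did with the mean of the probes (-0.39, adjusted p = 0.776) and in the deposited value table (-1.14, adjusted p = 0.0731). Ncstn, a gamma-secretase subunit with levels near the floor, differed by -1.15 ± 0.28 (adjusted p = 0.0185). It missed the threshold without KO LPS replicate 3 (-0.997, adjusted p = 0.0612), with normexp (-0.52, adjusted p = 0.161) and in the deposited value table (-0.75, adjusted p = 0.206). Snw1, which binds RBPJ complexes, differed by -0.67 ± 0.19 (adjusted p = 0.0357); this call was lost when any of 11 single arrays was left out, with adjusted p from 0.05 to 0.0938, and the deposited value table gave 0.19 (adjusted p = 0.836).

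Between KO and WT cells, 8 of the 47 were higher and 1 lower untreated, where 11.9% and 5.83% of all genes were called, and 7 were higher and 10 lower with LPS, where 13.6% and 17.1% were. Beside those above, Lfng was higher in KO cells with LPS (1.14, adjusted p = 0.0032; 1.05 and adjusted p = 0.13 in the deposited value table), and Kat2b (-1.70, adjusted p = 6.51e-06), Tle1 (-1.55, adjusted p = 3.43e-05) and Tle3 (-1.05, adjusted p = 0.000119) were lower in KO cells with LPS.

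The genes whose levels followed each member most closely over the 15 arrays are given by their Pearson correlation, which describes these arrays only, since all arrays of a group share genotype, treatment and slide. Dll1 was followed by Edn1 (0.999), which encodes endothelin, by Arid5a (0.998) and by F3 (0.998), which encodes tissue factor. Edn1 had mean log2 levels of 1.85 in KO LPS and 4.28 in WT LPS cells, with both untreated groups at the floor. Jag1 was followed by Ifi44 (0.996), Zfp975 (0.995) and Asns (0.995), Notch2 by H3f3b (0.991, over 14 arrays), Gpr45 (0.977) and Cd40 (0.976, over 14 arrays), and Rbpj by Slc4a7 (0.992), Col18a1 (0.990) and Gda (0.989). Hey1 was followed by Zfp467 (0.993), Hexim1 (0.992) and Smad3 (0.992, over 14 arrays), Smad3 encoding a transducer of TGF-beta signals. Hes1 was followed less closely, by Ston2 (0.942), Naa16 (0.935) and Ints3 (0.919). Notch1 was followed by Wdr45b (0.971), Map7d2 (0.950, over 14 arrays) and Chic1 (0.915, over 14 arrays).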

How the data were processed

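Total RNA from 15 cultures was amplified, labelled with Cy3 and hybridised to Agilent mouse slides that carry 8 arrays each, per the labels' protocols. The deposited scanner files hold intensity values, read with Agilent Feature Extraction 10.7.3.1 per the file headers, which had already been background-subtracted there and not scaled between arrays. The authors' deposited value table holds log2 values of 50378 features, by a method not given in the sources used here, and served as an alternative.

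Spots marked as outliers (4827) were set to missing. Signals were divided by the array's 75th percentile over all non-control spots and raised to a floor of 0.0436, then log2 was taken and repeat spots averaged. Probes with exactly 1 RefSeq symbol (26582 of 55681) were kept if at least 3 arrays of 1 group had them well above background, and each gene was represented by its brightest kept probe. A model of 4 group means over 15 arrays was fitted in R 4.3.3 with limma 3.58.1 (files read with data.table, version 1.17.8) and tested on simulated data. Benjamini-Hochberg adjustment ran over all 14192 genes, or over 18338 probes for second probes, at 0.05. The number of arrays and, for dim probes, the signal over background limit the precision. "At least N-fold" sets the bright group's mean against, per array of the dim group, the higher of the array's own detection limit and the probe's signal. It holds for the main scaling and background correction only and carries no error. It can exceed the fitted change, whose floor is that of the least sensitive array.

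The members and gene lists were chosen with earlier results of these data known. Genes named beside the members are, in each role, the 2 with the largest mean LPS response among those called, all called in the difference of the responses, all called at 2-fold or more between genotypes, and the 3 best correlated with each member. Over 21 same-numbered pairs of arrays, deviations from the group means correlated between -0.535 and 0.563, with 11 above 0.1. By the rule that every pair exceed 0.1, the numbers pair only KO LPS with WT LPS (3 pairs, 0.135 to 0.446), and there the replicate block changed the call of none of the 23 named genes. The planned mean spot signal was replaced by the median for normexp (offset 50). Promoter sequences are those of RefSeq, GRCm38.p6.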

Additional observations from a re-analysis of the deposited data

Results flagged for a closer look

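Among 27 sets of 4 arrays of the members' probes, 2 held an array far from the rest, where chance sets apart about 5% of such sets. Notch1 read -3.32 on KO untreated replicate 3 by its brighter probe, against 3.06 to 4.21 on the other KO untreated arrays. Rbpj read 6.09 on WT LPS replicate 1, against 5.74 to 5.78 on the other WT LPS arrays.

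The LPS response differed between KO and WT cells, by the test of the difference itself, for Dll1 (-1.22) and Hey1 (0.98) among the members. Among the other pathway genes it differed for Kat2b (-1.69), Tle3 (-1.51), Tle1 (-1.24), Ncstn (-1.15), Pofut1 (-0.80) and Snw1 (-0.67), all on the log2 scale as KO minus WT.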

How the results depend on the processing

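Of the processing alternatives, 3 were chosen after seeing the data: the percentile over unmarked spots, leaving out the 3 most deviating arrays, and a gene's other probe. The LPS calls of Dll1, Jag1, Notch2 and Hey1 held in both genotypes under every alternative run, as did the KO minus WT calls of Dll1 with LPS and of Hey1 at both conditions.

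Values of the opposite sign that passed in either fit were, with normexp, -0.11 for the Hey1 difference; in the deposited table, 0.38 for Psen2 in KO and 0.19 for the Snw1 difference; without the filter on dim probes, which brings in another probe, -0.78 for Dll3 in WT with LPS and 0.10 for Dll3 in KO minus WT with LPS; with the mean of the probes, 0.40 for Aph1b in KO minus WT with LPS; and with the other probe, -0.74 for Rbpj in KO minus WT with LPS. The cause was not tested. Another 48 values changed sign and passed in neither fit, Notch1 in KO cells, Hes1 in WT cells and the Rbpj difference among them.

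Counts moved as follows. For the difference of the responses, 2 members were called; quantile normalization, normexp and the deposited table each called 1. Of the other pathway genes 6 were called, against 3 with normexp, 2 in the deposited table and 17 with array weights. Of all genes 1427 were called, against 792 with normexp, 568 in the deposited table, 4501 with array weights and 2233 without the 3 most deviating arrays. Untreated, KO minus WT called 9 other pathway genes, against 15 after quantile normalization, 4 in the deposited table and 21 with array weights; of all genes it called 2515, against 1197 in the deposited table and 5192 with array weights. With LPS it called 2 members, against 4 with array weights; 17 other pathway genes, against 9 in the deposited table; and 4365 genes, against 2728 there. The deposited table tests 12464 genes.

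Leaving out each array in turn, the LPS response called 5 members in KO and 5 to 6 in WT cells, 32 to 35 and 30 to 34 other pathway genes, and 7658 to 8800 and 8002 to 8753 genes. The difference called 2 members, 4 to 9 other pathway genes and 931 (without KO LPS replicate 3) to 1932 genes. KO minus WT called 2 to 3 members at both conditions; untreated, 5 (without KO untreated replicate 1) to 12 others and 1728 to 2874 genes; with LPS, 13 to 20 others and 2867 (without KO LPS replicate 3) to 4957 genes.

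With the replicate number as a block, the difference called 1117 genes and 2 members and missed the threshold for Snw1 (adjusted p = 0.0737) and Pofut1 (adjusted p = 0.0563), untreated KO minus WT missed it for Tle3 (adjusted p = 0.0615), and 4 of 15 arrays correlated best with another array of their own number. Untreated Dll1 and Hey1 in WT cells with LPS are limited by signal over background.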
